A study of Homo sapiens with 12 samples.

Results

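Small nucleolar RNAs (snoRNAs) were followed in Calu-6 cells, a human lung cancer line, as the 179 rows of the array table whose single gene symbol begins with SNORA or SNORD and a number. They were 179 of the 19460 rows with exactly 1 symbol and of 33252 rows in all, and every matching row was kept. The symbols divide into 115 C/D rows (SNORD) and 64 H/ACA rows (SNORA), which stand for 176 snoRNAs because SNORA10 has 2 rows and SNORA15 has 3. Of these, 4 rows form pairs with identical values. A further 74 rows carry several symbols, at least 1 of them a snoRNA, and lie outside this set.

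Cells received siLAPTM4B, an siRNA pool against LAPTM4B, or siControl, a scrambled pool, and were kept with 0% or 10% fetal bovine serum (FBS). The 4 groups were siLAPTM4B with 0% FBS, siLAPTM4B with 10% FBS, siControl with 0% FBS and siControl with 10% FBS, each with 3 arrays from 3 independent transfections of 1 cell line. RNA was collected 48 h after the medium change and 72 h after transfection, and was hybridised to Human Gene 1.0 ST arrays. Values are log2 signals from robust multi-array average (RMA), so a log2 difference of 1 is a doubling of signal.

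SnoRNAs are short nuclear RNAs, most of which are cut from the introns of host genes. C/D snoRNAs guide ribose methylation through fibrillarin, and H/ACA snoRNAs guide pseudouridylation through dyskerin, mainly on ribosomal RNA. A small number, such as U13 and U14, act in the maturation of the pre-ribosomal RNA of the small subunit. In the human reference the C/D members had a median length of 81 bases and the H/ACA members of 134 bases. A probe inside an intron also reads unspliced host RNA, so an array signal cannot tell apart the mature snoRNA and its precursor.

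All 176 symbols were found in RefSeq (GRCh38.p14), and 176 of the 179 rows lay within 90 other genes, judged by position without regard to strand. Ribosomal protein genes held 34 rows. SNHG14, the imprinted chromosome 15 transcript, held 40 rows, 20 of SNORD115 and 20 of SNORD116. GAS5, a non-coding host gene, held 7, MEG8 held 6 of the imprinted chromosome 14 families SNORD113 and SNORD114, and RPL13A held 4. The 3 rows outside other genes were SNORA7B, SNORD32B and SNORD13.

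Many snoRNA hosts belong to the growth-controlled class of genes whose transcripts begin with a C and a run of pyrimidines, the terminal oligopyrimidine (TOP) start. Taken as a C followed by at least 4 bases that are C or T at the RefSeq start, on the gene's own strand, this start was present in 25 of 74 hosts with a promoter entry (33.8%), against 5.14% of the 27305 genes with an entry. The starts of 4 hosts are shown because their snoRNAs are described below, 15 bases before and 15 from the transcript start in RefSeq (GRCh38.p14), with capitals marking the unbroken run of C and T that begins at the start.
RPL27A (host of SNORA3A and SNORA3B, chr11:8682777-8682806, + strand): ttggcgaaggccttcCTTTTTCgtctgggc
RPL13A (host of SNORD34, chr19:49487593-49487622, + strand): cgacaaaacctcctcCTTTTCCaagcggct
HSPA8 (host of SNORD14C and SNORD14E, chr11:123062122-123062151, - strand): cgggcggaaaccggtCTCattgaactcgcc
NOL11 (host of SNORA38B, chr17:67717921-67717950, + strand): gcgcggccgtacttaggtttgctcaaaatg
The ribosomal protein hosts RPL27A and RPL13A open with runs of 7 pyrimidines, HSPA8 with 3, and NOL11 with 0.

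In the arrays themselves, LAPTM4B checked the labels. Without serum its log2 signal was 10.45, 10.50 and 10.54 in siLAPTM4B cells, against 11.94, 11.87 and 11.93 in siControl cells. With 10% FBS it was 10.01, 10.04 and 9.99 in siLAPTM4B cells, against 11.76, 11.75 and 11.80 in siControl cells. The knockdown arrays did not overlap the control arrays in either medium, as the labels imply. Of 9 epithelial markers measured, KRT8 (12.89) and KRT18 (12.23) were high while CDH1 (6.21) lay below the lower quartile of all rows. Without serum KRT7 was lower (-1.90 in siLAPTM4B and -1.63 in siControl cells), EPCAM was higher (0.79 and 1.09), and CLDN7 was called lower in siControl cells (-0.19). Of 10 fibroblast markers, 3 lay below the lower quartile, DCN and FAP both at 5.25, while LUM (-1.85 and -1.87) and PDGFRB (-1.23 and -1.19) were lower and PDGFRA higher (0.47 and 0.40) without serum. Of 9 leukocyte markers, 4 lay below the lower quartile, PTPRC at 5.25 among them, while CD68 reached 10.29, and without serum CD68 (-0.62 and -0.52) and CD14 (-0.32 and -0.35) were lower and LYZ (0.31 and 0.65) higher. After knockdown, without serum and with 10% FBS, LUM differed by -0.50 and -0.52, and PDGFRB by -0.39 and -0.35, while KRT7 was called without serum (-0.37) and EPCAM with 10% FBS (0.51). The part of these changes in the snoRNA results was not tested.

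SnoRNA signals spanned nearly the full range of the array. Means over the 12 arrays ran from 3.77 to 13.81, with a median of 8.46 for C/D rows and 8.88 for H/ACA rows, beside 8.47 for all 1-symbol rows. The extremes were crowded: 58 of the 179 rows (32.4%) lay below the lower quartile of all rows, 6.87, and 52 (29.1%) above the upper quartile, 10.01. Levels of different rows rest on different probes and do not rank the RNAs by abundance.

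The highest C/D rows were SNORD116-15 (13.66), SNORD13 (13.64), SNORD13P3 (13.43), SNORD41 (13.09) and SNORD116-14 (12.98). SNORD13 encodes U13 and lies outside other genes, and SNORD13P3 is named as one of its pseudogenes, so their probes may read shared sequence. The highest H/ACA rows included SNORA71D in SNHG17 (13.81), SNORA23 in IPO7 (13.28), SNORA3A in RPL27A (12.99) and SNORA24 in SNHG8 (12.26).

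The lowest C/D rows were all of the SNORD115 family, a brain-enriched cluster without a settled ribosomal RNA target: SNORD115-4 (3.77), SNORD115-14 (3.96), SNORD115-40 (4.08), SNORD115-2 (4.08) and SNORD115-28 (4.09). All 20 SNORD115 rows lay below the lower quartile, between 3.77 and 4.88. The 20 SNORD116 rows, annotated to the same host SNHG14 and known from the Prader-Willi syndrome region, ranged from 5.04 to 13.66 with a median of 8.72, and 7 of them lay above the upper quartile. All 6 SNORD113 and SNORD114 rows lay below the lower quartile, between 4.39 and 5.71. The lowest H/ACA rows were SNORA16B (4.95), SNORA70F (5.24), SNORA70B (5.39), SNORA69 (5.45) and SNORA19 (5.85).

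**Figure D1:**
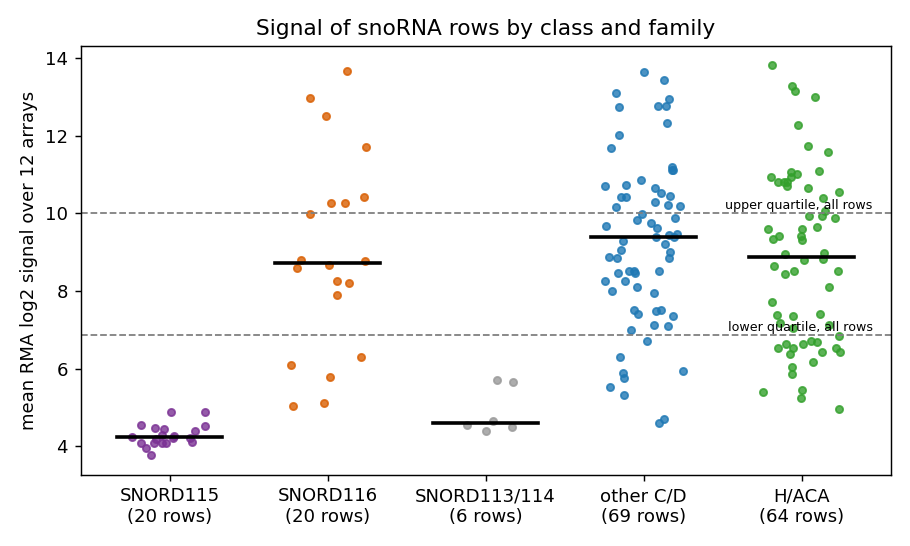
Mean RMA log2 signal over the 12 arrays (y axis) of each snoRNA row (points), by class and family, with the median of each family as a black bar and the quartiles of all 1-symbol rows as dashed lines. All SNORD115 rows lie at or below 4.88, while SNORD116 rows reach 13.66.

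Replicates spread more in snoRNA rows than in the array as a whole. The pooled within-group SD had a median of 0.132 log2 in C/D rows and 0.122 in H/ACA rows, beside 0.074 over all 1-symbol rows. For the classes together the median SD was above that of all rows in each quartile of signal, but in the dimmest quartile C/D rows were at 0.0854, below the 0.0895 of all rows. In the brightest quartile the median SD was 0.114 in snoRNA rows and 0.0469 in all rows, and in the dimmest quartile it was 0.106 in snoRNA rows. The SNORD115 rows, at the floor of the array, had a median SD of 0.0699, and the SNORD116 rows of 0.156. SNORD58A in RPL17 (0.325), SNORD59A in ATP5F1B (0.318) and SNORD60 in SNHG19 (0.299) spread most among C/D rows, and SNORA41 in EEF1B2 (0.247), SNORA80E in KHDC4 (0.215) and SNORA33 in RPS12 (0.200) among H/ACA rows.

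**Figure D2:**
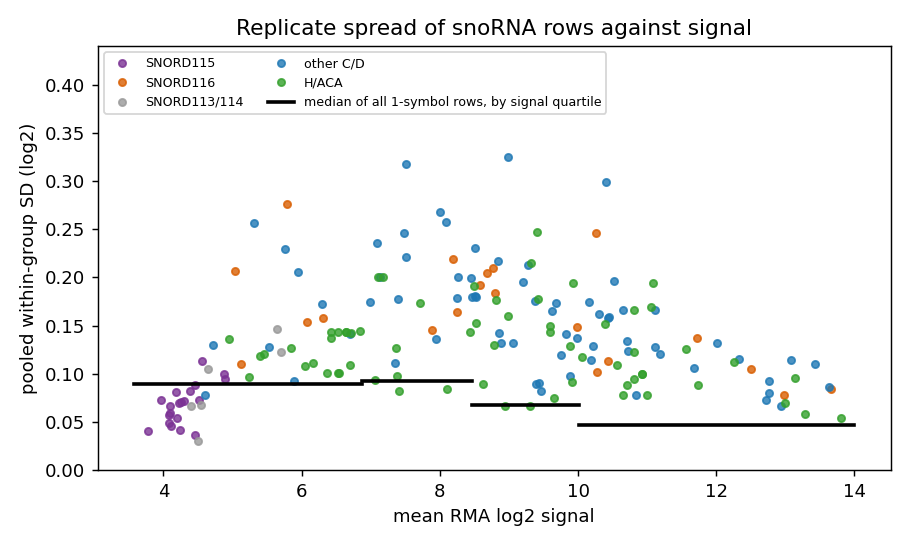
Pooled within-group SD of each snoRNA row (y axis, log2) against its mean RMA log2 signal (x axis), coloured by family, with the median SD of all 1-symbol rows in each quartile of signal as black bars. In the brightest quartile the snoRNA median is 0.114 and the median of all rows 0.0469.

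Part of this spread was shared between rows of one array. In siControl replicate 1 with 10% FBS, the median C/D row lay 0.12 log2 below its group mean (a deviation of -0.12) and 83.5% of C/D rows lay below theirs. The median C/D deviation was -0.10 in siLAPTM4B replicate 3 with 10% FBS and -0.07 in siControl replicate 1 with 0% FBS, and +0.08 in siControl replicate 2 with 10% FBS. H/ACA rows shifted the same way in these 4 arrays, with medians of -0.10, -0.09, -0.08 and +0.08 in the same order. The 19 rows of the small Cajal body RNAs (SCARNA), their relatives, did likewise at -0.13, -0.08, -0.12 and +0.12. The median pooled SD of the SCARNA rows was 0.139, also above that of all 1-symbol rows. The median of all 1-symbol rows stayed within 0.01 of its group mean in every array. The part of these shared shifts in the comparisons was not tested apart from the fits without single arrays given below.

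**Figure D3:**
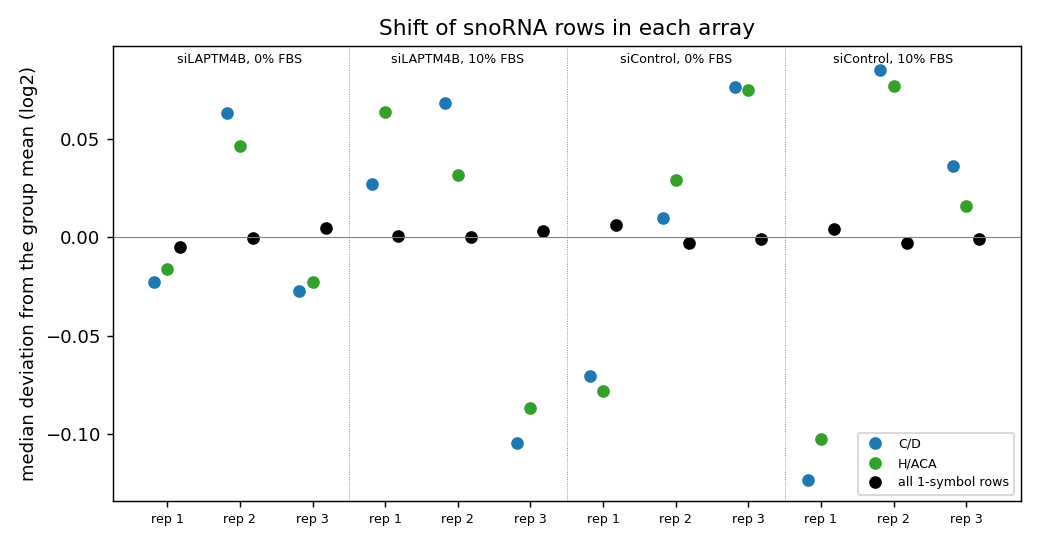
Median deviation from the group mean (y axis, log2) of C/D rows, H/ACA rows and all 1-symbol rows in each of the 12 arrays (x axis), by group. The C/D and H/ACA medians lie together within each array, lowest at -0.12 for C/D rows in siControl replicate 1 with 10% FBS.

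Across the 12 arrays, pairs of C/D rows outside the imprinted repeats had a median correlation of 0.60 in their deviations from the group means (69 rows), H/ACA pairs of 0.34 (62 rows, identical rows counted once), and every 40th row of the array of -0.003 (487 rows). Rows of 1 host were closer still in RPL13A (0.84, 4 rows) and SNHG17 (0.77, 3 rows), and SNORD116 rows stood at 0.65. SNORD115 rows had 0.10. These rows share arrays, and copies within a family share sequence, so they are not independent measurements.

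The first comparison asks which rows differ after LAPTM4B knockdown in cells without serum. By limma across all 1-symbol rows, with Benjamini-Hochberg adjustment, 1 of the 179 snoRNA rows passed an adjusted p under 0.05, beside 2.33% of all rows, 0.591% higher and 1.74% lower. That row was SNORA71C, a guide in the SNHG17 host whose family targets ribosomal RNA of the small subunit. Its log2 signals were 11.76, 11.80 and 11.68 in siLAPTM4B cells, against 11.34, 11.52 and 11.48 in siControl cells, and the groups did not overlap. SNORA71C rose by 0.30 (SE 0.06, 1.23-fold, adjusted p = 0.0429 by limma). The call did not hold when any single one of the 6 arrays was left out.

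At an unadjusted p under 0.01, the threshold of the study's methods, 8 rows passed (background 6.63%), 5 of them higher (background 2.13%), all H/ACA, and 3 lower (background 4.51%), all C/D. At an unadjusted p under 0.05 there were 24 (background 15.1%), and in 25 rows the groups did not overlap (background 21.3%). Of these, none but SNORA71C passed the adjustment. The other higher rows were SNORA71A with a log2 difference of 0.31, SNORA37 with 0.29, SNORA38B with 0.25 and SNORA52 with 0.20, and the lower rows were SNORD51 at -0.31, SNORD14C at -0.28 and SNORD75 at -0.26. In all, 49 of 64 H/ACA rows had a positive difference and 75 of 115 C/D rows a negative one, with medians of 0.04 and -0.03, beside 0.01 for all rows. The C/D median turned to 0.01 without siControl replicate 3.

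With 10% FBS, 2 snoRNA rows differed after knockdown, 1 in each direction, beside 4.08% of all rows, 1.99% higher and 2.09% lower. SNORA38B, in the nucleolar protein gene NOL11, had log2 signals of 9.80, 9.67 and 9.78 in siLAPTM4B cells, against 9.48, 9.44 and 9.41 in siControl cells. Every siLAPTM4B array lay above every siControl array. SNORA38B rose by 0.30 (SE 0.05, 1.23-fold, adjusted p = 0.0159 by limma). Without serum its signals were 10.29, 10.38 and 10.42 in siLAPTM4B cells, against 9.97, 10.09 and 10.27 in siControl cells, and the difference of 0.25 did not pass (adjusted p = 0.15 by limma).

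SNORD116-16 had log2 signals of 5.58, 5.18 and 5.52 in siLAPTM4B cells with 10% FBS, against 5.80, 6.17 and 5.97 in siControl cells. The groups did not overlap, although the signal lay below the lower quartile of all rows. SNORD116-16 fell by 0.56 (SE 0.12, adjusted p = 0.0375 by limma). Both calls of this comparison were lost when any of siControl replicates 2 and 3 or siLAPTM4B replicates 1 and 3 was left out, and that of SNORD116-16 also without siLAPTM4B replicate 2.

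At an unadjusted p under 0.01, 8 rows passed with 10% FBS (background 8.09%), 2 higher and 6 lower (background 4.04% in each direction). At an unadjusted p under 0.05 there were 27 (background 18.2%), and in 15 rows the groups did not overlap (background 24.5%). Besides these calls they were SNORD114-26 at 0.30 and SNORD45C at -0.46, SNORA28 and SNORD116-6 at -0.41, SNORA14A at -0.27 and SNORD55 at -0.24, none of which passed the adjustment. Of the C/D rows, 87 of 115 had a negative difference, with a median of -0.09 beside 0.004 for all rows, and 19 of 20 SNORD116 rows did so, with a median of -0.16. H/ACA rows were divided, 29 positive and 35 negative. The C/D median moved to -0.02 without siLAPTM4B replicate 3 and to -0.16 without siControl replicate 1, the arrays in which snoRNA rows were shifted down, and the count of calls was 0 and 10 without them. The share of all rows called without them is not given.

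The 7 GAS5 rows gave negative differences in both media after knockdown, between -0.26 and -0.06 without serum and between -0.29 and -0.03 with 10% FBS. The host GAS5 is a transcript that accumulates when growth stops. SNORD74 was the brightest of them at 12.72 and SNORD77 the dimmest at 7.09. None of the 7 passed the adjusted threshold in either medium by limma (1 had an unadjusted p under 0.05 in each), and the 7 rows share arrays and a host. Without serum that 1 row was SNORD75 (-0.26), which also had an unadjusted p under 0.01, beside 6.63% of all rows. The negative sign was not particular to GAS5. Of the 69 C/D rows outside the imprinted repeats, GAS5 rows included, 51 were negative without serum and 59 with 10% FBS.

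The second comparison sets 0% FBS against 10% FBS within each siRNA. In siLAPTM4B cells 33 of 179 snoRNA rows differed by limma, 30 higher and 3 lower, beside 20.7% of all rows, 9.74% higher and 11.0% lower. In siControl cells 12 rows differed, 9 higher and 3 lower, beside 26.0% of all rows, 13.2% higher and 12.9% lower. With both directions together, the snoRNA share called was thus near the background in siLAPTM4B cells and under it in siControl cells. By direction in siLAPTM4B cells, the share called higher was above the background and the share called lower was under it. This was not particular to snoRNA rows, as 4 of the 19 SCARNA rows were called higher there and 0 lower. By class, 17 of 64 H/ACA rows (26.6%) and 16 of 115 C/D rows (13.9%) were called in siLAPTM4B cells. In siControl cells 8 H/ACA rows (12.5%) and 4 C/D rows (3.48%) were called. The media did not overlap in 52 rows in siLAPTM4B cells (background 36.0%) and in 21 rows in siControl cells (background 41.1%). An unadjusted p under 0.01 was met by 33 and 11 rows (background 20.4% and 24.4%), and one under 0.05 by 57 and 27 rows (background 31.2% and 36.4%).

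The labels state no pairing of replicates. In siControl cells the deviations of same-numbered arrays correlated above 0.1 in each of the 3 replicate numbers, the rule taken here for pairing. With the number as a block, 35 rows passed there, 23 higher and 12 lower, beside 28.8% of all rows, 14.2% higher and 14.6% lower, and all 12 of the unblocked calls were among them.

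Class medians were small, 0.04 for C/D and 0.11 for H/ACA rows in siLAPTM4B cells and 0.02 and 0.03 in siControl cells, beside -0.01 and -0.02 for all rows. The counts in each direction moved with single arrays. Without siLAPTM4B replicate 3 with 10% FBS, 31 rows were called in siLAPTM4B cells, 22 higher and 9 lower. Without siControl replicate 1 with 10% FBS, 18 rows were called in siControl cells, 7 higher and 11 lower. The share of all rows called in these fits without single arrays is not given.

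By the unblocked fits, 7 rows passed in both siRNAs, all in the same direction, which is 21.2% of the calls in siLAPTM4B cells and 58.3% of those in siControl cells. With the replicate block in siControl cells and no block in siLAPTM4B cells, 17 rows passed in both. The 7 were SNORA38B, SNORA2A, SNORD14E, SNORA80E, SNORA55 and SNORD94, all higher without serum, and SNORA21, which was lower. The call of SNORA80E was lost in 8 of 13 alternative runs in siControl cells and in 2 of 13 in siLAPTM4B cells. Over the 179 rows, the serum differences of both siRNAs, which share no array, had the same sign in 125 and a Pearson correlation of 0.68 (Spearman 0.59), beside a Pearson correlation of 0.86 over all 1-symbol rows.

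SNORA38B was the row with the lowest adjusted p under both siRNAs. In siLAPTM4B cells the signals given above were between 10.29 and 10.42 with 0% FBS, against 9.67 to 9.80 with 10% FBS, and in siControl cells between 9.97 and 10.27 with 0% FBS, against 9.41 to 9.48 with 10% FBS. The media did not overlap within either siRNA. SNORA38B rose by 0.62 in siLAPTM4B cells (SE 0.06, 1.53-fold, adjusted p = 6.1e-05 by limma) and by 0.67 in siControl cells (SE 0.07, 1.59-fold, adjusted p = 0.000309 by limma). Its host NOL11, a protein of pre-ribosomal RNA processing, differed by -0.08 in siLAPTM4B cells and -0.06 in siControl cells, and did not pass in either.

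SNORA2A, a guide for ribosomal RNA of the large subunit in the KANSL2 gene, had log2 signals of 7.48, 7.76 and 7.51 with 0% FBS, against 6.80, 7.09 and 6.65 with 10% FBS, in siLAPTM4B cells. In siControl cells they were 7.44, 7.43 and 7.61 with 0% FBS, against 6.52, 7.07 and 6.78 with 10% FBS. The media did not overlap within either siRNA, and SNORA2A rose by 0.74 in siLAPTM4B cells (1.67-fold) and by 0.70 in siControl cells (1.63-fold). Adjusted p by limma was 0.00138 and 0.00394 in the same order.

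SNORD14E, a U14 copy in the chaperone gene HSPA8, had log2 signals of 9.01, 8.92 and 9.04 with 0% FBS, against 8.45, 8.66 and 8.22 with 10% FBS, in siLAPTM4B cells. In siControl cells they were 9.44, 9.03 and 9.55 with 0% FBS, against 8.34, 8.82 and 8.54 with 10% FBS. The media did not overlap within either siRNA. SNORD14E rose by 0.55 in siLAPTM4B cells (SE 0.10, adjusted p = 0.00361 by limma) and by 0.78 in siControl cells (SE 0.15, adjusted p = 0.00663 by limma). SNORD14C, the U14 copy in the same host, differed by 0.12 and 0.17 and did not pass, and HSPA8 itself differed by 0.003 and 0.02.

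SNORA55, in the poly(A)-binding protein gene PABPC4, had log2 signals of 9.20, 9.16 and 9.22 with 0% FBS, against 8.84, 8.85 and 8.70 with 10% FBS, in siLAPTM4B cells. In siControl cells they were 9.16, 9.05 and 9.09 with 0% FBS, against 8.60, 8.75 and 8.73 with 10% FBS. The media did not overlap, and SNORA55 rose by 0.40 and 0.41 (adjusted p = 0.000933 and 0.000888 by limma). SNORD94, known as a methylation guide for the U6 spliceosomal RNA, rose by 0.49 in siLAPTM4B cells and 0.34 in siControl cells, and SNORA80E in KHDC4 by 0.52 and 0.44. In the same order, adjusted p by limma was 0.000364 and 0.00782 for SNORD94 and 0.0138 and 0.04 for SNORA80E.

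SNORA21, a guide for ribosomal RNA of the large subunit in the ribosomal protein gene RPL23, went the other way. Its log2 signals were 10.65, 10.73 and 10.67 with 0% FBS, against 11.17, 11.03 and 10.99 with 10% FBS, in siLAPTM4B cells, and 10.24, 10.61 and 10.54 with 0% FBS, against 10.91, 11.12 and 11.03 with 10% FBS, in siControl cells. All arrays without serum lay below all arrays with serum. SNORA21 fell by 0.38 in siLAPTM4B cells (SE 0.06, adjusted p = 0.00154 by limma) and by 0.56 in siControl cells (SE 0.10, adjusted p = 0.00372 by limma). RPL23 differed by -0.14 in siLAPTM4B cells, which did not pass, and fell by 0.19 in siControl cells (adjusted p = 0.016 by limma).

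**Figure D4:**
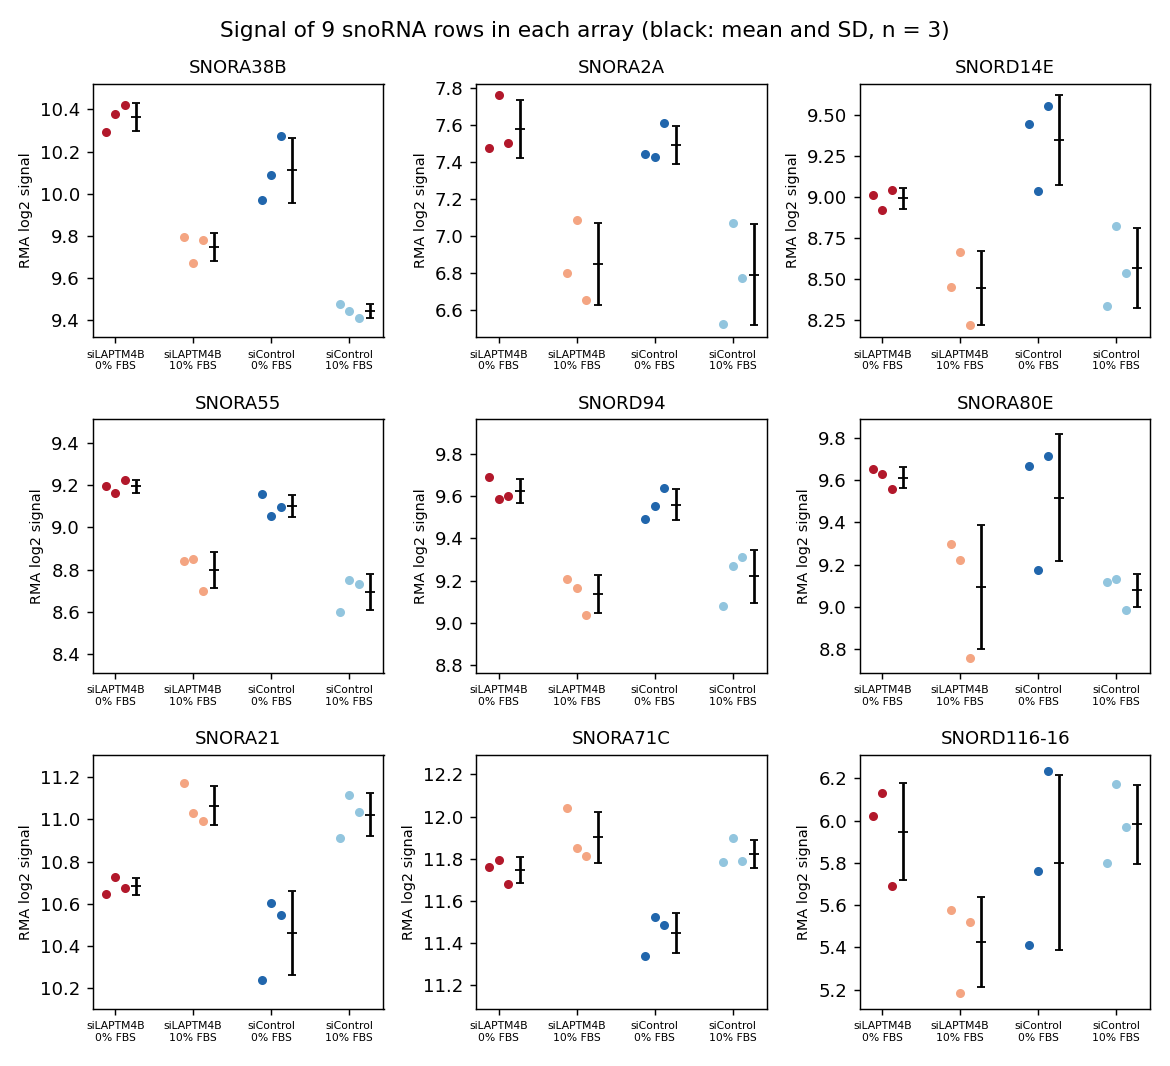
RMA log2 signal (y axis, a separate range for each panel) of 9 snoRNA rows in each array of the 4 groups (x axis), with the mean and SD of 3 arrays in black. SNORA38B, SNORA2A, SNORD14E, SNORA55, SNORD94 and SNORA80E are higher and SNORA21 is lower with 0% than with 10% FBS under both siRNAs.

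By the unblocked fits, 24 higher and 2 lower rows were called in siLAPTM4B cells and not in siControl cells. The higher ones included SNORD82 (0.57) and SNORA75 (0.55), both in the nucleolin gene NCL, SNORA7B (0.52), SNORA54 in NAP1L4 (0.51), SNORA20 in the chaperonin gene TCP1 (0.45), SNORA65 in RPL12 (0.44), SNORD45B in RABGGTB (0.43), SNORD34 in RPL13A (0.43), SNORD8 in CHD8 (0.36) and SNORA52 in RPLP2 (0.32). The lower ones were SNORD52 (-0.23) and SNORA36C (-0.21). Of these named rows, SNORD82, SNORA75, SNORA54, SNORA20, SNORD45B, SNORD52 and SNORA36C were also called in siControl cells with the replicate block, in the same direction.

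In siLAPTM4B cells 9 of the 20 SNORD116 rows were called higher without serum, beside 9.74% of all rows called higher, against 0 of 20 in siControl cells (3 with the replicate block), beside 13.2% of all rows (14.2% with the block). SNORD116-26 led with log2 signals of 8.97, 9.17 and 9.02 with 0% FBS, against 8.60, 8.57 and 8.34 with 10% FBS, in siLAPTM4B cells, a rise of 0.55 (adjusted p = 0.00109 by limma). In siControl cells its signals were 8.60, 8.92 and 9.21 with 0% FBS, against 8.58, 8.79 and 8.73 with 10% FBS, which overlap. Over the family the median difference was 0.21 in siLAPTM4B cells and 0.08 in siControl cells, and 17 of 20 rows were positive in each. The 20 copies are alike in sequence and a probe may read several, so 9 calls are not 9 separate observations. None of the 20 SNORD115 rows was called in any comparison by limma, and 1 had an unadjusted p under 0.05 after knockdown without serum, against 0 in the other comparisons.

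By the same fits, the 5 rows called in siControl cells and not in siLAPTM4B cells were SNORD61 in RBMX (0.53), SNORA29 in TCP1 (0.51) and SNORD51 in EEF1B2 (0.29), all higher, and SNORA71C and SNORA3B, both lower. SNORA71C had log2 signals of 11.34, 11.52 and 11.48 with 0% FBS, against 11.78, 11.90 and 11.79 with 10% FBS, and fell by 0.37 (SE 0.06, adjusted p = 0.00231 by limma). In siLAPTM4B cells it had 11.76, 11.80 and 11.68 with 0% FBS, against 12.04, 11.85 and 11.81 with 10% FBS, a difference of -0.15 that did not pass. The siControl arrays without serum were thus the lowest of the 4 groups for SNORA71C, and these arrays also enter its knockdown call above. SNORA3B fell by 0.26 in siControl cells, and SNORA3A, in the same host RPL27A, differed by 0.11 there and rose by 0.20 in siLAPTM4B cells.

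**Figure D5:**
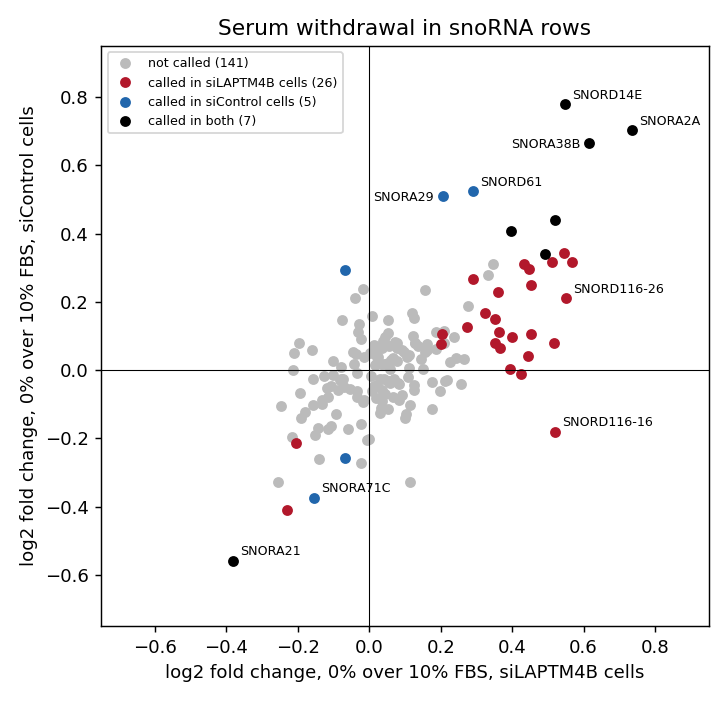
Log2 fold change of each snoRNA row for 0% over 10% FBS in siLAPTM4B cells (x axis) and siControl cells (y axis), coloured by where the row was called (adjusted p under 0.05 by limma). The 7 rows called under both siRNAs are 6 higher and 1 lower.

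Whether knockdown and serum interact was fitted over all 12 arrays. No snoRNA row passed the adjusted threshold by limma (0 of 179, beside 0.262% of all rows), 0 had an unadjusted p under 0.01, beside 3.5% of all rows, 12 had an unadjusted p under 0.05, beside 11.0% of all rows, and the ordinary linear model test called 0 as well. The differing counts under both siRNAs, those of SNORD116 included, are therefore not shown to differ. The largest interaction among the named rows was that of SNORD116-16, 0.70 (SE 0.26, adjusted p = 0.35 by limma).

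Over 84 pairs of a snoRNA row and a 1-symbol row of its host, the Pearson correlation of the serum differences was 0.14 in siLAPTM4B cells and 0.20 in siControl cells, and that of the knockdown differences was 0.10 without serum and 0.32 with 10% FBS. Both rows of a pair come from the same arrays. Of 20 called snoRNA rows with a host row in siLAPTM4B cells, 8 had the sign of the host and 1 host was called. Of 11 in siControl cells, 6 had the sign of the host and 4 hosts were called, 3 in the same direction. Over all 84 pairs, 43 in siLAPTM4B and 46 in siControl cells had the sign of the host. Among the 63 distinct hosts with a row, 4 and 15 were called in the same order, beside 20.7% and 26.0% of all rows. In EEF1B2, a translation elongation factor gene, the host fell by 0.26 in siControl cells (adjusted p = 0.008 by limma). There SNORD51 rose by 0.29 (adjusted p = 0.0494 by limma), a call lost in 7 of 13 alternative runs. In siLAPTM4B cells the host differed by -0.05 and SNORD51 by -0.07, and neither was called. SNHG17 fell by 0.19 under both siRNAs, with its SNORA71C row lower in siControl cells.

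Outside SNHG14 and MEG8, and only among rows whose host had a promoter entry, 37 rows lay in hosts with a TOP start and 68 in hosts without. In siLAPTM4B cells without serum, 7 of the 37 were called higher and 1 lower, and 12 of the 68 higher and 1 lower, with median differences of 0.08 and 0.05, beside 9.74% of all rows called higher and 11.0% lower. In siControl cells 1 of the 37 was called higher and 1 lower, and 7 of the 68 higher and 1 lower, with medians of 0.02 and -0.02, beside 13.2% and 12.9% of all rows. SNORA38B and SNORD14E, both higher without serum, come from hosts without the TOP start shown above. Hosts with it hold SNORA3B, called lower in siControl cells, and also SNORA3A and SNORD34, both called higher in siLAPTM4B cells.

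The protein partners of snoRNAs were read from gene lists. Among 6 proteins of H/ACA particles and their assembly, NAF1 (-0.29) and DKC1, the pseudouridine synthase dyskerin (-0.26), fell without serum in siLAPTM4B cells. NHP2 (-0.25), NAF1 (-0.22) and NOP10 (-0.21) fell in siControl cells. Of all rows, 11.0% were called lower in siLAPTM4B and 12.9% in siControl cells. None of the 3 measured C/D particle proteins was called in any comparison by limma, FBL (fibrillarin) and NOP58 among them (mean log2 signals 12.89 and 11.90), and 1, NOP58, had an unadjusted p under 0.05 after knockdown with 10% FBS. Of 15 assembly and transport factors, 5 were called lower in each siRNA and 0 higher, beside 11.0% of all rows lower in siLAPTM4B and 12.9% in siControl cells, the ATPases RUVBL1 (-0.24 in siLAPTM4B and -0.21 in siControl cells) and RUVBL2 (-0.19 and -0.34) in both.

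Of 35 measured proteins of pre-ribosomal RNA processing, 6 were called lower without serum in each siRNA, and 2 higher in siControl cells. These shares, and those of the RNA polymerase I genes below, are to be read beside the 11.0% of all rows called lower in siLAPTM4B and the 12.9% lower and 13.2% higher in siControl cells. NAT10, an acetyltransferase that works with U13, fell by 0.35 in siLAPTM4B and by 0.37 in siControl cells, and NOL6 by 0.34 and 0.23. Of 14 RNA polymerase I genes, 3 were called lower in each siRNA and 3 higher in siControl cells, among them TAF1A (0.42). After knockdown, DDX21, a nucleolar helicase, was lower without serum (-0.24) and TAF1A higher with 10% FBS (0.42), and no other gene of these lists was called by limma. U13 itself (SNORD13) differed by 0.02 in siLAPTM4B and -0.08 in siControl cells without serum and was not called.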

How the data were processed

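The authors deposited log2 signals that they made by RMA (background correction, quantile normalization, probe summary) in BRB-ArrayTools v 4.3.0. Total RNA came from silica columns, which retain short RNAs incompletely, and the part of this in snoRNA signals was not tested. Gene symbols came from the platform annotation, updated through RefSeq, and hosts were genes that contain the snoRNA's position on GRCh38.p14, without strand. No columns were left unmapped. Each comparison was fitted with limma 3.58.1 (R 4.3.3) to its 6 arrays (12 for the interaction) over the 19460 rows with 1 symbol, with 1 prior variance and Benjamini-Hochberg adjustment over those rows. The fit was tested on simulated data. Called means an adjusted p under 0.05. The replicates are separate transfections of 1 line. Same-numbered arrays were taken as paired where their deviations correlated above 0.1 in all 3 replicates, although the labels state no pairing. Serum withdrawal in siControl cells met this rule (0.37, 0.13 and 0.20), so its blocked count is given with the main results. The rule was not met in siLAPTM4B cells (0.32, 0.13 and -0.17) or for knockdown (0.39, 0.07 and 0.18 without serum, 0.37, 0.15 and -0.08 with 10% FBS). Named rows were called rows, the largest changes at an unadjusted p under 0.01, the 5 highest and lowest and the 3 most variable rows per class, pre-ribosomal snoRNAs, imprinted families and hosts with 4 or more rows. Members and gene lists were chosen with earlier results of these data known. Alternatives were all rows, an intensity trend with a robust prior, dim rows left out, an ordinary t-test, the block, 1 fit of 12 arrays, centring, identical rows counted once and leaving out each array. The methods name a t-test for in vitro experiments and name no test for the arrays. Some items that these rules pick are not reported here.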

Additional observations from a re-analysis of the deposited data

Results flagged for a closer look

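The 74 array rows that carry several symbols, at least 1 of them a snoRNA, were fitted by limma together with all 33252 rows. With 0% against 10% FBS, 2 of the 74 were called higher and 1 lower in siLAPTM4B cells. In siControl cells 0 were called higher and 1 lower. The share of all rows called in that fit is not given here. These 74 rows belong to none of the comparisons above and are given as counts because a row with several symbols names no single snoRNA. At an unadjusted p under 0.01 in the same fit, 8 of the 74 differed after knockdown with 10% FBS, all of them lower. None passed the adjusted threshold, and the median difference of the 74 there was -0.10. In the separate fit over 1-symbol rows alone, 8.09% of those rows met this unadjusted threshold in either direction and 4.04% lower.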

How the results depend on the processing

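Counts of called snoRNA rows moved with the test. Against 1 snoRNA row called for knockdown without serum, the count was 0 with all rows fitted and with the ordinary t-test, 5 with dim rows left out, 7 with an intensity trend and robust prior, and 4 with the replicate block. At an unadjusted p under 0.01 it was 4 with all rows, 3 with the t-test and 15 with the block, against 8. With 10% FBS, against 2 called, it was 0 with all rows and with the t-test, 6 with dim rows left out, 14 with the trend and 5 with the block, and at an unadjusted p under 0.01 it was 5 with all rows, 16 with the trend and 1 with the t-test, against 8. For serum withdrawal in siLAPTM4B cells, against 33, it was 21 with all rows and 8 with the t-test, and at an unadjusted p under 0.01 it was 11 with the t-test, against 33. In siControl cells, against 12, it was 5 with the t-test and 35 with the block, and at an unadjusted p under 0.01 it was 5 with the t-test and 30 with the block, against 11. Fewer rows enter the adjustment when dim rows are left out, and the cause of the other moves was not tested. Apart from the block in siControl cells (28.8% of all rows), the share of all rows called under each alternative is not given. The same holds for the fits without single arrays. Whether snoRNA counts moved more than those of all rows was not tested.

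Leaving out 1 array at a time gave 0 to 1 calls for knockdown without serum and 0 to 10 with 10% FBS, and 4 to 11 and 2 to 23 at an unadjusted p under 0.01. It gave 23 to 37 for serum withdrawal in siLAPTM4B cells and 10 to 18 in siControl cells, 25 to 38 and 10 to 18 at an unadjusted p under 0.01, and 0 interactions called and 0 to 7 at that threshold. This leaves 2 arrays in a group. SNORA38B, SNORA55, SNORA29 and SNORA71C in siControl cells kept their serum calls in every alternative run, as did SNORA38B, SNORA55, SNORA21, SNORD94, SNORA52, SNORD8, SNORD116-1 and SNORD116-26 in siLAPTM4B cells. Class medians near 0 changed sign without single arrays. The C/D median ran from -0.07 to 0.01 for knockdown without serum, from -0.02 to 0.04 for serum withdrawal in siControl cells, and, with its sign kept, from -0.16 to -0.02 for knockdown with 10% FBS. The H/ACA median ran from -0.05 to 0.04 for knockdown with 10% FBS and from -0.03 to 0.04 for serum withdrawal in siControl cells. Beside the count for serum withdrawal in siControl cells, the block changed those of both knockdown comparisons by over 1.5 times, which did not meet the rule for pairing. With 3 arrays a group, a row must change by several times its spread to be called, and 58 rows lay below the lower quartile of signal.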
